A study of Mus musculus with 8 samples.

Results

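The tripartite motif (TRIM) family was described in sorted beta cells of mice with both copies of Adar floxed (KO) or 1 copy floxed (Het). Its members were taken as the genes named Trim followed by a number, with or without a letter, other than Trim25, whose normalized count averaged at least 10 over the 8 libraries. That mean used both genotypes together and is given here only as the rule. It kept 59 of 67 such genes, out of 44343 genes in the table. Just inside the limit were Trim60 at a mean of 11.0, Trim30c at 11.0 and Trim58 at 11.3, and just outside it were Trim40 at 9.68, Trim43c at 9.53 and Trim43b at 9.27. Of the 59, Trim69 passed with a Het mean below 10, and Trim29, Trim58 and Trim60 passed with a KO mean below 10.

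The KO mice carried MipCreER, 2 floxed Adar alleles and the R26R-EYFP reporter, and the Het mice carried MipCreER, 1 floxed and 1 intact Adar allele and the same reporter. All were given 2 doses of 8 mg tamoxifen at 1 month of age, and islets were taken 7 days later. MipCreER is a Cre recombinase that tamoxifen switches on, driven by the mouse insulin promoter, so both groups carry the transgene, and YFP marks the cells in which Cre has acted. Each genotype had 4 libraries (KO 1 to KO 4 and Het 1 to Het 4). Whether each library came from 1 mouse or a pool, and whether libraries came from separate mice, is not in the labels. P-values therefore apply to these libraries only, and those of limma draw on a spread pooled over genes. The design text asks for the molecular basis of the islet inflammation that follows Adar loss.

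TRIM proteins are defined by a RING domain, which hands ubiquitin from a conjugating enzyme to a target, followed by B-box zinc fingers and a coiled coil. The domain at the other end differs between members and picks the target. Many TRIM proteins with a PRY/SPRY domain at that end act in innate immunity: they tag, hold or destroy viral proteins or the signalling proteins that lead to interferon, and some of their genes are themselves switched on by interferon. ADAR turns adenosines of double-stranded RNA into inosines, and its loss is known to let the cell's own RNA set off interferon signalling.

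Counts assigned to genes summed to 15.9, 12.96, 5.37 and 9.07 M in KO 1 to KO 4. In Het 1 to Het 4 they summed to 5.93, 7.03, 12.8 and 8.10 M. These sums were taken over genes and are not the number of reads sequenced. They differed within each genotype too, and the part of genotype in these differences was not tested. The 6697 abundant genes (mean of 200 or more) had a median log2 level, relative to the average of the 8 libraries, of 0.88, 0.96, −0.77 and −0.56 for KO 1 to KO 4. In the Het libraries it ran from −0.46 to 0.22. Reads of Xist and of the Y-linked Ddx3y showed females only in KO 3 and KO 4, males only in Het 1 and both sexes in the other 5 libraries. Those 5 libraries thus held RNA of more than 1 mouse. Values below are therefore given under the deposited scaling and, where it matters, also with TMM factors taken from those abundant genes (called the abundant-gene scaling), an alternative added after the data were seen. Moving to that scaling shifted the median log2 fold change of all tested genes by −0.23. Adar itself had 4029.9, 2365, 615 and 1343 in the KO libraries, against 943, 1173, 1187 and 744 in the Het libraries, a log2 fold change of 0.75 ± 0.58 (SE; adjusted p = 0.910, limma). A count over the whole gene does not show whether the floxed exons were lost. The insulin gene Ins2, the defining beta cell transcript, had 125891 to 835219 in the KO libraries and 389199 to 799944 in the Het libraries.

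Of the 59 TRIM genes, 5 were higher in KO cells and 0 were lower (limma, adjusted p under 0.05). The 5 were Trim30a, Trim30d, Trim34a, Trim12c and Trim12a, all listed here in the PRY/SPRY class. Classes were assigned by gene name, and the domains were not checked in protein sequences. In bulk libraries a change in the share of a cell type and a change of RNA per cell cannot be told apart. Over all 21498 genes tested, the shares called were 0.921% higher and 0.0233% lower in KO. At an unadjusted p under 0.05, 10 members were higher, among them Trim69, and 1, Trim29, was lower, where 4.05% and 2.7% of all genes were. The quasi-likelihood test of edgeR called 6 members higher and 0 lower, adding Trim66, with 0.673% and 0.0343% of all genes called. At an unadjusted p under 0.05 edgeR had 9 members higher and 2 lower, where 4.75% and 1.91% of all genes were. DESeq2 called 7 higher and 0 lower of the 46 members it gave an adjusted p, adding Trim66 and Trim21, with 1.25% and 0.0178% of all genes called. At an unadjusted p under 0.05 it had 12 higher, Trim69 again among them, and 0 lower. Of the 44333 genes it gave a p, 3.65% were higher and 0.974% lower. Those include genes with a mean below 10, which no member has, and 21498 genes reach that mean. The DESeq2 share is thus not one of genes like the members. The median log2 fold change (KO over Het, on the log2(value + 1) scale, which understates low genes) was 0.19 for the 59 members and 0.05 for all genes. Under the abundant-gene scaling limma called 3 members higher (Trim30a, Trim34a and Trim21) and 0 lower, with 1.14% and 0.395% of all genes called, and the medians were −0.05 and −0.18, so the sign of the members' median follows the scaling.

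**Figure D1:**
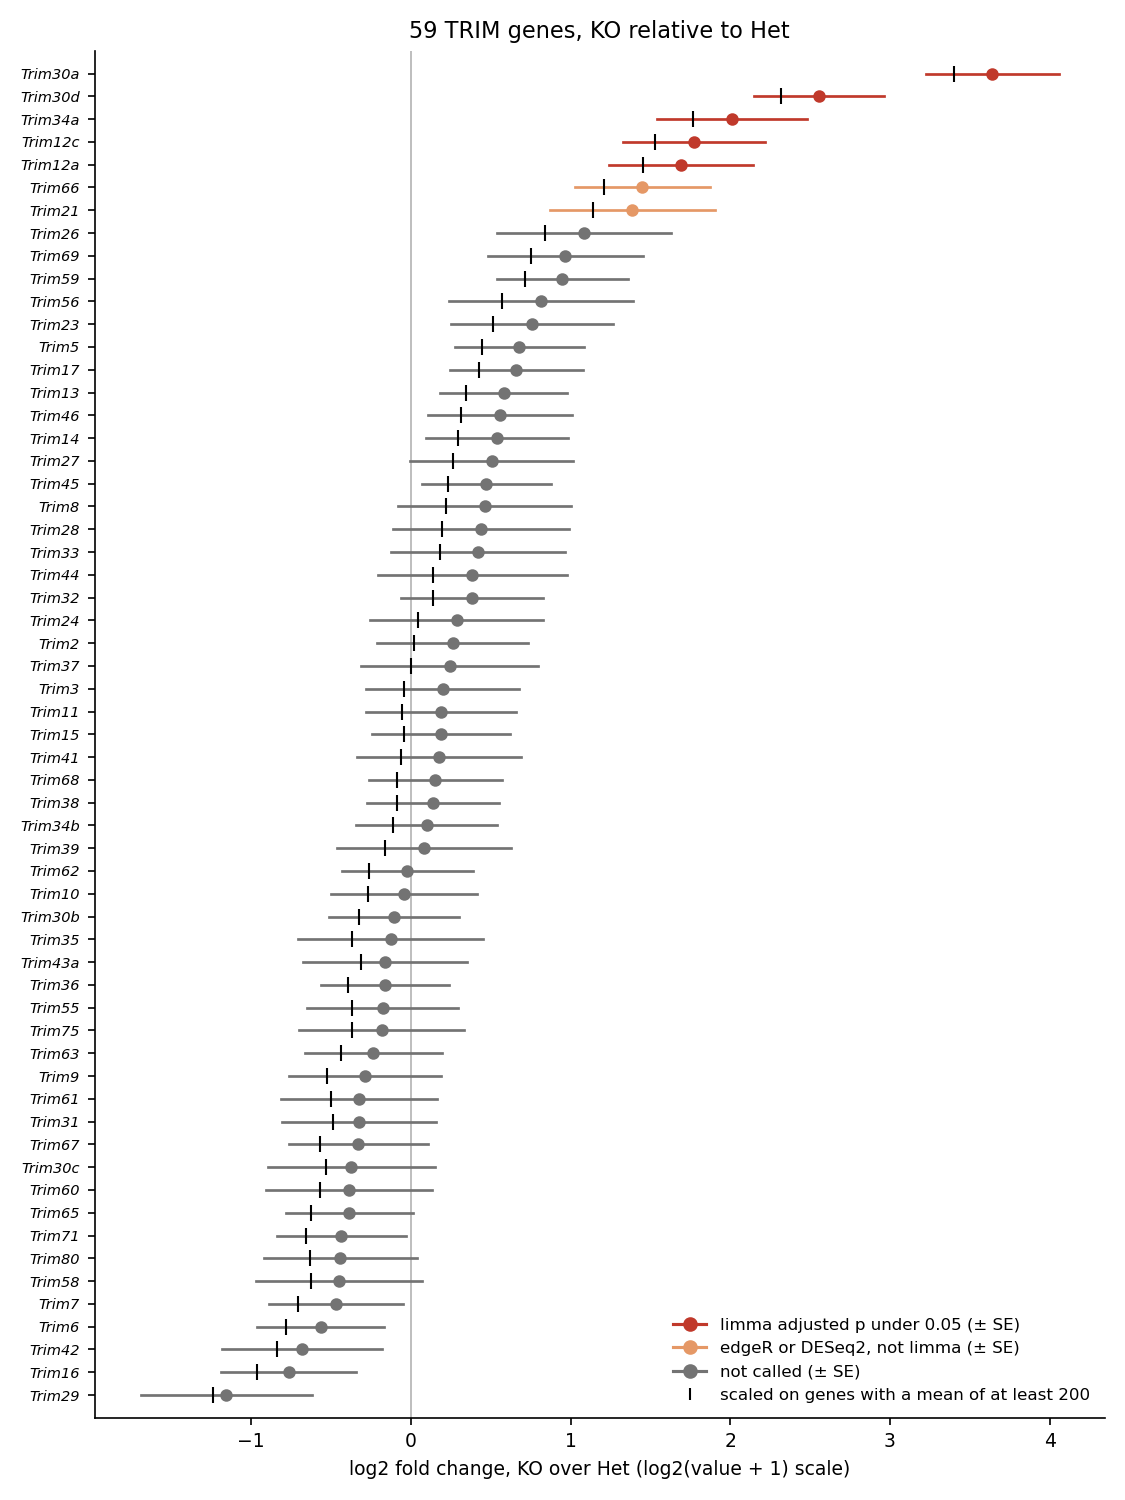
Log2 fold change of each of the 59 TRIM genes, KO over Het on the log2(value + 1) scale (points, with the standard error from limma over 4 and 4 libraries as lines), ordered by size. Black ticks give the value under the abundant-gene scaling. The 5 genes called by limma, in red, lie between 1.69 and 3.64, and Trim66 and Trim21, in orange, were called under the deposited scaling by edgeR or DESeq2 and not by limma.

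All 5 called genes lie in 1 cluster of TRIM genes on chromosome 7 (mm10, GENCODE M21), which runs over 289 kb from Trim6 to Trim30d, chr7:104218793-104507849. The cluster holds 10 members, all listed in the PRY/SPRY class. Rodents have more copies of its genes than humans, whose matching cluster holds TRIM5, TRIM6, TRIM22 and TRIM34. The other 5 members in it, Trim6, Trim5, Trim34b, Trim30b and Trim30c, did not pass the test. Outside the cluster, 0 of 49 members were called by limma in either direction, 1 by edgeR and 2 by DESeq2. At an unadjusted p under 0.05 limma had 5 of the 49 up, Trim69 among them, and 1, Trim29, down. The median log2 fold change was 1.19 over the 10 cluster members and 0.18 over the 49 others. Under the abundant-gene scaling these medians were 0.95 and −0.06. The 10 split into the 5 called genes, at 1.69 to 3.64, and the other 5, at −0.57 to 0.68. No cluster member thus lay near 1.19, and the contrast of medians is not separate from the calls.

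**Figure D2:**
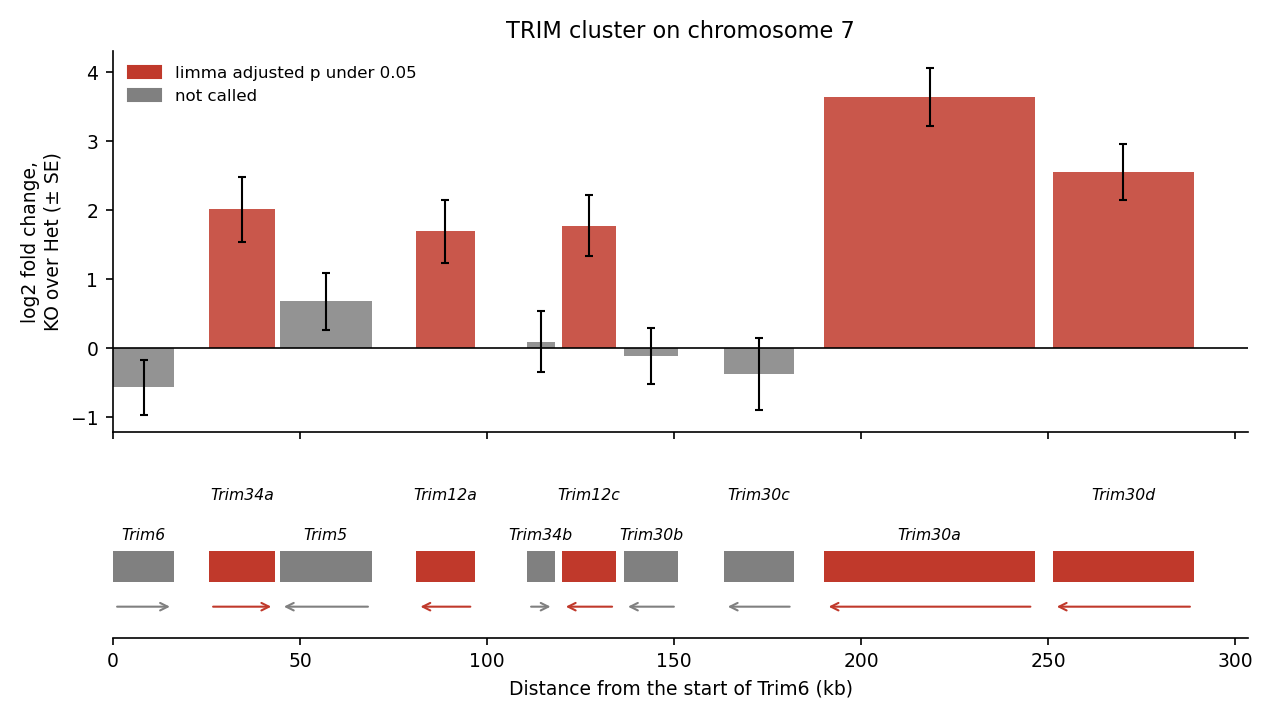
TRIM cluster on chromosome 7. Bars give the log2 fold change, KO over Het, ± SE (4 and 4 libraries), drawn over the length of each gene; boxes and arrows below give its extent and direction, by distance in kb from the start of Trim6. Red genes (Trim34a, Trim12a, Trim12c, Trim30a and Trim30d) passed the limma test. Of the grey genes, Trim6 lies at the edge of the cluster and the others lie between red genes.

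The promoters of the called genes are shown because they share a short motif. The core of the interferon-stimulated response element, a site in the promoters of many interferon-induced genes, was searched for as GAAA, 2 free bases and GAAA, which reads as TTTC, 2 free bases and TTTC on the other strand. The search covered 250 bases before to 50 bases after each start in RefSeq's promoter table for GRCm38.p6. The table had entries for 47 of the 59 members, and 9 of these 47 (19.1%) held the motif, against 3.99% of the 27025 genes in the table (3.44% of 32851 promoters of the same length). The 9 were all 5 called genes together with Trim5, Trim21, Trim26 and Trim2, which held it in only part of its listed promoters. Neighbouring copies with identical windows, such as Trim30a and Trim30d, were counted as separate genes. A second element, TTCNNNGAA, known as the gamma-activated site, was in 12.8% of the 47 members and 9.55% of all genes in the table. Sequences are 5′ to 3′ on the gene's own strand, with the motif (for Trim30c, the bases aligned with it) in capitals and 10 bases on either side. A match is a description of these letters, not of binding.
Trim30a: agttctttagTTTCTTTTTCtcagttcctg
Trim30d: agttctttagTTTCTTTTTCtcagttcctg
Trim30c: agttctgtggTTCCTTTTTCtcagttccac
Trim34a: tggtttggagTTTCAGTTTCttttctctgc
Trim12a: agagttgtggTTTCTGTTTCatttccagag
Trim12c: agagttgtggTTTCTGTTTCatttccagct
Trim5: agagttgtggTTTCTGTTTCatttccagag
Trim21: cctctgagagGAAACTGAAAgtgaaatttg
Trim26: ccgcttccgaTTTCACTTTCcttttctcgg

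The Trim30a window lies on the minus strand at chr7:104465210-104465239, where the motif takes up positions −36 to −27 from the start (the first transcribed base is 1). The Trim30d window at chr7:104507871-104507900, also minus strand, has all 30 bases in common with it. The closest 30 bases in the promoter of Trim30c, at chr7:104400896-104400925, have 25 of the 30, with 9 of the 10 bases in capitals, and do not hold the motif. The closest 30 bases in the promoter of Trim30b have 15 of 30. Trim12a (chr7:104315466-104315495) and Trim5 (chr7:104288136-104288165), both on the minus strand, have the same 30 letters, and Trim12c (chr7:104353359-104353388) ends differently. Trim34a is read from the plus strand at chr7:104244457-104244486, Trim21 from the minus strand at chr7:102565450-102565479 and Trim26 from the plus strand at chr17:36836976-36837005. In Trim21 and Trim26 a second match overlaps the one shown. The windows of Trim5, Trim21 and Trim26 thus hold the motif in genes that limma did not call under the deposited scaling.

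Trim30a showed the largest log2 fold change of the 59 members. In mouse macrophages its protein is known to break down TAB2 and TAB3 and so to dampen signalling from Toll-like receptors. Its normalized counts were 1309, 232, 121 and 313 in the KO libraries, against 35.9, 26.3, 13.7 and 31.6 in the Het libraries. Every KO value lay above every Het value, and KO 1 was far above the other KO libraries. The means were 494 ± 549 in KO and 26.9 ± 9.61 in Het (SD, n = 4 each), a ratio of 18.4. Without KO 1 the KO mean was 222 ± 96.0 (SD, n = 3) and the ratio 8.26, with a log2 fold change of 2.98 (adjusted p = 3.66e-10, limma). The log2 fold change was 3.64 ± 0.42 (SE; adjusted p = 2.65e-15, limma), and the exact two-sided permutation test gave p = 0.0286, the smallest that 70 arrangements of 4 and 4 allow. Trim30a was called under each of the 22 alternative settings, with 3.40 and an adjusted p of 0.0111 under the abundant-gene scaling. In limma without its trend and robust settings, the adjusted p of Trim30a was 3.67e-05.

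Trim30d, its neighbour, had 218, 41.4, 41.9 and 85.1 in the KO libraries, against 28.2, 5.001, 7.71 and 17.8 in the Het libraries. KO 2 and KO 3 were about equal and KO 1 highest, and all 4 KO values lay above all 4 Het values, which themselves spread widely. The log2 fold change was 2.56 ± 0.40 (adjusted p = 1.32e-07, limma, and 0.0497, edgeR), and the exact permutation test gave its smallest p of 0.0286 here too, as it did for Trim34a and Trim12c. Under the abundant-gene scaling it was 2.32 with an adjusted p of 0.138, and the groups overlapped there, with KO 2 at 21.8 below Het 1 at 34.2. In limma without its trend and robust settings, the adjusted p of Trim30d was 0.00569. Trim30a and Trim30d share little transcript sequence: 5.98% of the 50-base stretches of Trim30a also occur in Trim30d.

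Trim34a, a mouse relative of human TRIM34, had 1193, 441, 171 and 439 in the KO libraries, against 102, 143, 101 and 98.8 in the Het libraries. Het values lay close together and KO 3, the lowest KO library, stood just above Het 2. The log2 fold change was 2.01 ± 0.47 (adjusted p = 0.00344, limma), and 1.77 with an adjusted p of 0.0208 under the abundant-gene scaling. Of its 50-base stretches, 59.7% occur in other genes too, most of them in Trim34b, so reads of the pair may have been split by counting. Trim34b had 9.86, 16.8, 31.99 and 17.9 in KO, against 16.7, 22.5, 7.71 and 24.3 in Het, which overlapped, with a log2 fold change of 0.10 ± 0.44 (adjusted p = 0.988, limma). The call of Trim34a was lost without KO 1 (adjusted p = 0.141, limma), without Het 1 (0.0713) and without Het 4 (0.0551).

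Trim12c and Trim12a are mouse relatives of primate TRIM5, which binds the capsid of incoming retroviruses, and Trim12c is known in mouse cells to act with TRAF6 toward interferon and NF-κB. Trim12c had 849, 247, 95.96 and 253 in the KO libraries, against 71.7, 80.01, 86.6 and 72.9 in the Het libraries. Its KO 3 value was the only KO value near the Het libraries and still lay above all of them. The log2 fold change was 1.77 ± 0.44 (adjusted p = 0.00904, limma), and 1.53 with an adjusted p of 0.053 under the abundant-gene scaling. Trim12a had 777, 308, 115 and 306 in the KO libraries, against 71.7, 85.01, 100.3 and 122 in the Het libraries. Here KO 3 fell below Het 4, so the groups overlapped (exact permutation p = 0.0571). The log2 fold change of Trim12a was 1.69 ± 0.45 (adjusted p = 0.0218, limma), and 1.45 with an adjusted p of 0.0586 under the abundant-gene scaling. Both calls were lost without KO 1 (adjusted p = 0.459 for Trim12c and 0.488 for Trim12a, limma), without Het 1 (0.137 and 0.387), without Het 2 (0.0956 and 0.243) and without Het 4 (0.0942 and 0.0682), and that of Trim12a also without Het 3 (0.106). Both were also lost in limma without its trend and robust settings (0.135 and 0.157), and that of Trim12a with no filter on low values (0.0541).

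**Figure D3:**
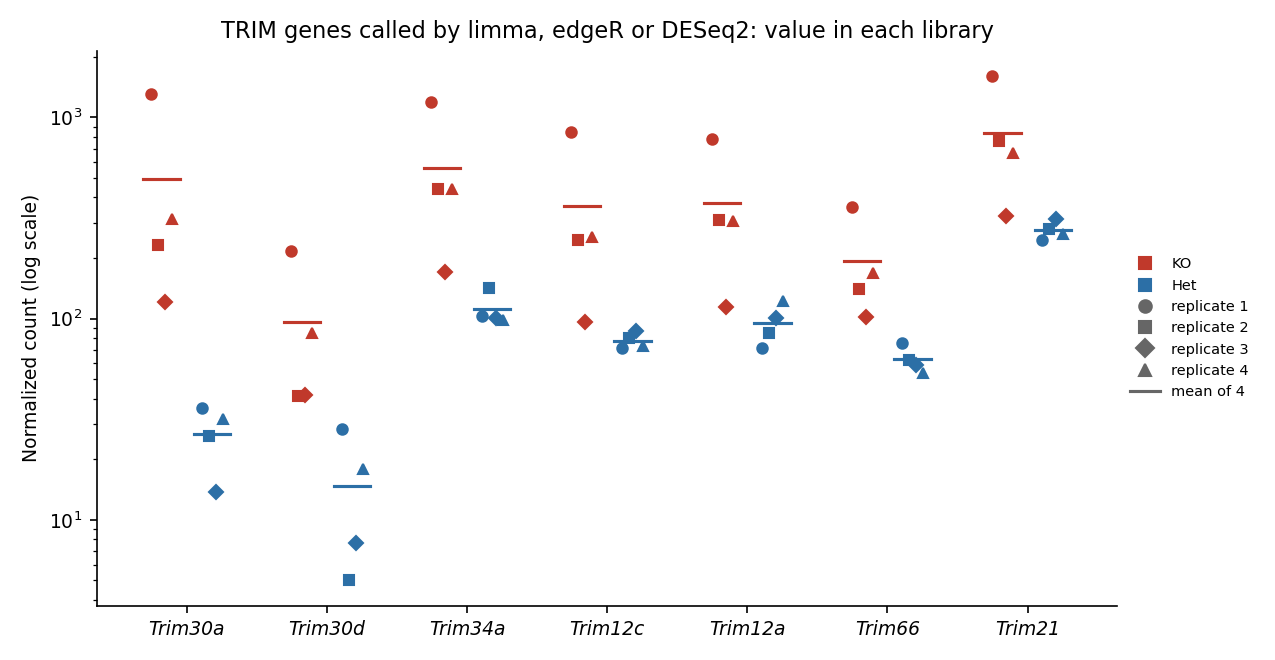
Normalized count (log axis) of the 7 TRIM genes called by limma, edgeR or DESeq2 in each library, KO in red to the left and Het in blue to the right of each pair; marker shape gives the replicate number and bars the mean of 4. KO 1 is the highest library for all 7 genes, and KO values lie above all Het values for all but Trim12a.

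The 5 cluster members that were not called had low counts, with Het means from 12.1 (Trim30c) to 49.6 (Trim6). The called genes Trim30a and Trim30d had Het means within that range, 26.9 and 14.7. Those of Trim12c, Trim12a and Trim34a were 77.8, 94.8 and 111. Trim5, which shares 36.6% of its 50-base stretches with other genes, most of them with Trim12c, had 78.9, 22, 25.4 and 44.7 in KO, against 38.4, 18.8, 14.6 and 26.7 in Het. KO 1 was its highest value and the groups overlapped, with a log2 fold change of 0.68 ± 0.41 (adjusted p = 0.839, limma). Trim6, known for making free ubiquitin chains that activate IKKε, had 22.4, 19.4, 52.9 and 50.01 in KO, against 43.6, 53.8, 42 and 59.1 in Het. KO 1 and KO 2 were its lowest libraries, and its log2 fold change was −0.57 ± 0.40. Trim30b had 22.4, 15.5, 44.1 and 39.3 in KO, against 26.9, 33.8, 25.7 and 35.6 in Het. Trim30c had 8.07, 3.88, 13.2 and 14.9 in KO, against 11.5, 10, 14.6 and 12.2 in Het. Both overlapped between genotypes, at −0.11 ± 0.41 and −0.37 ± 0.52. The 95% interval of Trim5 ran from −0.12 to 1.48 and that of Trim30b from −0.91 to 0.69, both under the deposited scaling. Under the abundant-gene scaling they widened to −0.88 to 1.78 and −1.81 to 1.17, and that of Trim5 then held the value of Trim12a. The difference between called and uncalled neighbours was not itself tested.

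A further 3 members listed for chromosome 7 lie outside the cluster. Trim21, the cytosolic receptor for antibodies bound to virus, lies at chr7:102557921-102565486 and had 1606, 759.7, 325 and 666 in the KO libraries, against 246, 280, 311 and 262 in the Het libraries. KO 3 stood close above Het 3, and the other KO libraries well above every Het library. Its log2 fold change was 1.39 ± 0.52, with an adjusted p of 0.347 by limma, 0.0564 by edgeR and 0.0249 by DESeq2. With the abundant-gene scaling it was 1.14 (adjusted p = 0.0422, limma). Trim68 had 149.7, 124, 63.97 and 75.6 in KO, against 94.8, 109, 102 and 55.9 in Het. Trim3, an NHL-repeat protein of neurons, had 476, 448, 159 and 173 in KO, against 243, 270, 284 and 181 in Het. Both overlapped, and their log2 fold changes of 0.15 and 0.20 turned to −0.09 and −0.04 under the abundant-gene scaling.

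Trim66, also on chromosome 7 (chr7:109449006-109508134), is a chromatin reader with a PHD finger and a bromodomain. It had 360.3, 139.8, 101 and 169 in the KO libraries, against 75.6, 62.5, 59.1 and 53.5 in the Het libraries. All KO values lay above all Het values under the deposited scaling, but under the abundant-gene scaling KO 2 (73.5) fell below Het 1 (91.7). The log2 fold change was 1.45 ± 0.42, with an adjusted p of 0.0605 by limma, 0.0277 by edgeR and 0.0174 by DESeq2. Its promoter did not hold the motif searched for.

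With KO 3 and KO 4 alone against all Het libraries, limma called 6 members higher (the same 5 genes and Trim66) and 3 lower (Trim35, Trim67 and Trim9), where 1.27% and 7.45% of all genes were called. With KO 1 and KO 2 alone it called 33 higher and 5 lower, where 45.5% and 16.1% of all genes were. The same 5 genes were chosen with all KO libraries together, so these subsets are not separate tests of them. Without KO 1, 2 members were higher (Trim30a and Trim30d) and 0 lower, where 0.488% and 0.0279% of all genes were.

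Leaving out Trim69, which passed the mean of 10 only through the KO libraries, 6 members had every KO value above every Het value under the deposited scaling (Trim30a, Trim30d, Trim34a, Trim12c, Trim66 and Trim21). Among all members 0 had every KO value below. Over all genes tested these shares were 2.19% and 0.893%. Under the abundant-gene scaling 7 were above (Trim30a, Trim34a, Trim12c, Trim21, Trim26, Trim59 and Trim23) and 2 below (Trim35 and Trim9), where 5.47% and 4.27% of all genes were. Trim30a, Trim34a, Trim12c and Trim21 were above in both.

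**Figure D4:**
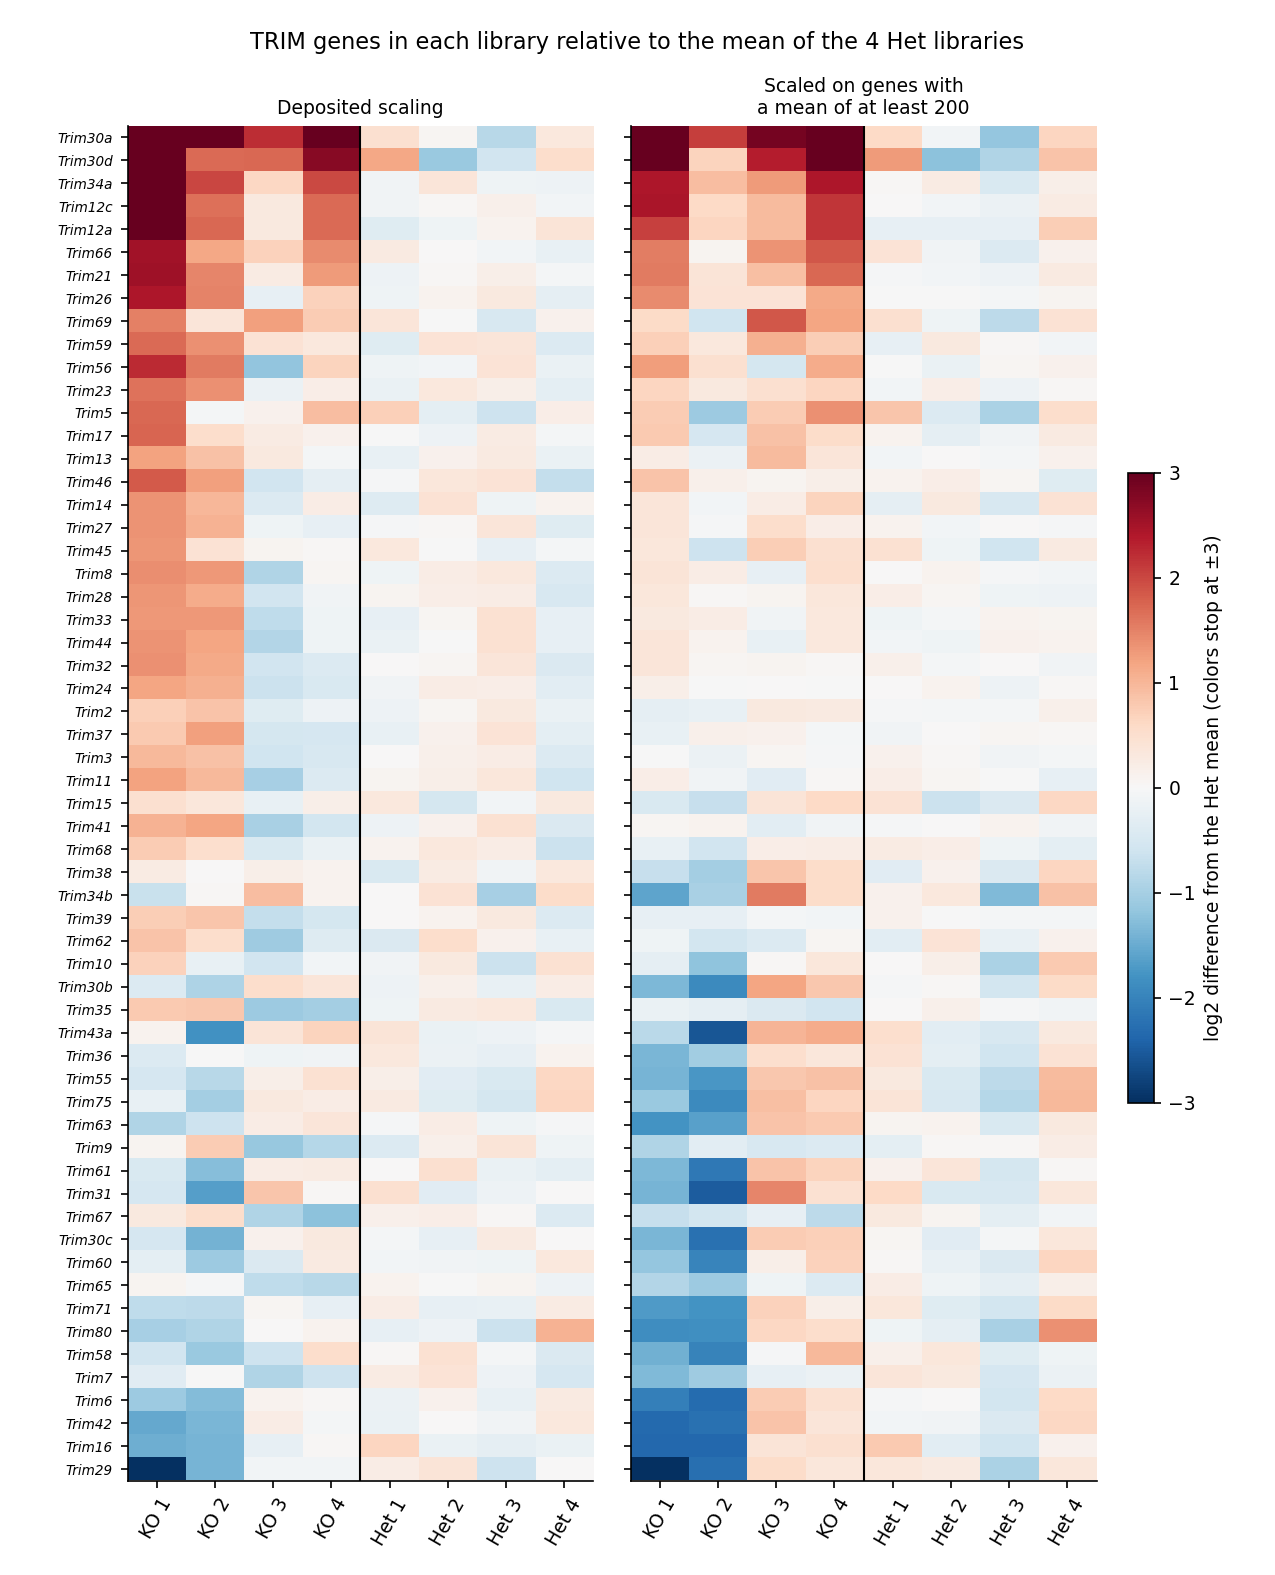
Level of each TRIM gene in each library as a log2 difference from the mean of the 4 Het libraries (red higher, blue lower, colors stop at ±3), under the deposited scaling (left) and the abundant-gene scaling (right), KO left of Het in each. Rows are ordered by fold change. Under the deposited scaling most rows are red in KO 1 and KO 2, and under the abundant-gene scaling the low genes at the bottom are blue there, while the top rows are red in KO libraries in both.

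A list of 13 members covered those with known parts in interferon or antiviral signalling outside the chromosome 7 group. None of the 13 was called by limma under the deposited or the abundant-gene scaling, by edgeR or by DESeq2. Limma did call Trim26 (adjusted p = 0.032) and Trim23 (adjusted p = 0.0286) higher when only genes with a mean of at least 200, 22 members among them, were tested with TMM factors. In that setting 404 of the 6697 genes tested were called higher and 284 lower. In the tests of all genes, at an unadjusted p under 0.05, 2 of the 13 were higher by limma, 2 by edgeR and 4 by DESeq2. None was lower by any. Trim69, which passed the mean of 10 only through the KO libraries, was among those higher by limma and by DESeq2. It is also part of the median of the list. Of all genes, 4.05%, 4.75% and 3.65% were higher by limma, edgeR and DESeq2, and 2.7%, 1.91% and 0.974% lower. The DESeq2 shares again include genes with a mean below 10. The median log2 fold change of the 13 was 0.50 under the deposited scaling and 0.26 under the abundant-gene scaling, against 0.05 and −0.18 for all genes. Trim26, which acts on IRF3 and NEMO, had 2568, 1349, 405 and 772 in KO, against 439, 515, 587 and 401 in Het. KO 3 lay below Het 1, Het 2 and Het 3. Its log2 fold change was 1.08 ± 0.55 (adjusted p = 0.733, limma), and 0.84 with an adjusted p of 0.0686 under the abundant-gene scaling. Trim56, an RNA-binding ligase that promotes double-stranded RNA and DNA sensing, had 4285, 2669, 396 and 1437 in KO, against 830.2, 860.1, 1209 and 783 in Het. KO 1, KO 2 and KO 4 were above, and KO 3 below, every Het library, with a log2 fold change of 0.82 ± 0.58 (adjusted p = 0.894, limma). Trim23, whose ARF domain binds GTP, had 912, 762, 258 and 336 in KO, against 254, 366, 333 and 237 in Het. Its log2 fold change was 0.76, and 0.52 with an adjusted p of 0.0745 under the abundant-gene scaling.

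Trim69 was a low gene with 26.9, 11.6, 22.1 and 15.5 in KO, against 11.5, 8.75, 6 and 9.72 in Het. All KO values lay just above all Het values, with a log2 fold change of 0.97 ± 0.48 (adjusted p = 0.727, limma), and this member passed the mean of 10 only through the KO libraries. Trim14, an adaptor of MAVS, had 316, 245, 91.5 and 143 in KO, against 93.5, 165, 111 and 132 in Het; 33.9% of its 50-base stretches occur in other genes, most of them in Nans, which overlaps it on the opposite strand. Trim65, which ubiquitinates the RNA sensor MDA5, had 48.4, 44.01, 26.5 and 25.01 in KO, against 48.7, 45.01, 48 and 40.5 in Het. KO 3 and KO 4 were lower than the rest, and the log2 fold change was −0.39 ± 0.40. Trim31, a ligase for MAVS, had 9.86, 3.88, 26.5 and 14.9 in KO, against 20.5, 11.3, 12.9 and 14.6 in Het. Trim38, which acts on TAB2 and TAB3 as Trim30a does, had 27.8, 23.3, 26.5 and 25.01 in KO, against 16.7, 27.5, 21.4 and 29.2 in Het. Both overlapped between genotypes, at −0.32 and 0.14, and the log2 fold change of Trim38 turned to −0.09 under the abundant-gene scaling.

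Trim27 had 830, 664, 298 and 271 in KO, against 316, 333, 417 and 249.5 in Het. Trim8, which acts on SOCS1, had 1494, 1406, 306 and 589 in KO, against 523, 664, 711 and 426 in Het. Trim32, a ligase with NHL repeats known from muscle disease, had 339.7, 289, 88.2 and 99.4 in KO, against 133, 138, 169 and 96.4 in Het. In all 3, KO 1 and KO 2 were the highest libraries. KO 3 lay below the Het range for Trim8 and Trim32, and the other values of KO 3 and KO 4 lay within it. Their log2 fold changes of 0.50, 0.46 and 0.38 did not pass the test. Trim13, an ER membrane ligase, had 86.9, 69.9, 46.3 and 35.7 in KO, against 32.03, 41.3, 45.4 and 32.4 in Het (0.58 ± 0.40, not called).

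In the domain classes, 4 members with a COS box beside SPRY and 4 with no RING domain were listed apart from PRY/SPRY. The 30 members listed as PRY/SPRY held all 5 limma calls and had a median log2 fold change of 0.15, and −0.09 under the abundant-gene scaling. Among the 4 members with a PHD finger and a bromodomain, the median was 0.43 and 0.19. Trim28, the corepressor that silences endogenous retroviruses through KRAB zinc finger proteins, had 1679.7, 1444, 450 and 620.4 in KO, against 706, 764, 781 and 478 in Het. Its log2 fold change was 0.44 ± 0.55, with a 95% interval of −0.64 to 1.52, which under the abundant-gene scaling narrowed to −0.09 to 0.48. Trim33, a regulator of SMAD4, had 1493, 1491, 358 and 554 in KO, against 509.9, 635, 829.7 and 509.6 in Het. Its log2 fold change was 0.42 ± 0.55. In both, KO 1 and KO 2 were about as high as each other and above every Het library, and KO 3 was the lowest library.

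Per kilobase of exon, the TRIM genes of highest mean level were Trim44 at 311 normalized counts per kb, Trim35 at 305, Trim28 at 208 and Trim8 at 206. Trim34a stood at 129.7, Trim30a at 63.3 and Trim30d at 14.8 on that scale. Trim44, which lacks the RING domain, had 3447, 3084, 739 and 1238 in KO, against 1173, 1336, 1870.3 and 1144 in Het. It was not called, at a log2 fold change of 0.38 ± 0.59. Trim35, a PRY/SPRY ligase, had 2281, 2317, 619.9 and 655 in KO, against 1212, 1591, 1642 and 961 in Het. KO 1 and KO 2 were above, and KO 3 and KO 4 below, every Het value under the deposited scaling, giving −0.13 ± 0.58. Under the abundant-gene scaling all 4 KO values of Trim35 (991 to 1271) lay below all 4 Het values (1352 to 1624), with a log2 fold change of −0.37 and an adjusted p of 0.184 (limma). Trim37, a MATH-domain ligase of centrosomes, had 1281, 1762, 517 and 528 in KO, against 639, 815, 990 and 608 in Het, which gave 0.24 ± 0.55, and 0.00 under the abundant-gene scaling with a 95% interval of −0.26 to 0.27.

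Trim9 and Trim46 were the most abundant of the 4 members with a COS box, which binds microtubules, beside the SPRY domain; both are best known from neurons. Trim9 had 279.7, 445, 120.2 and 146 in KO, against 197, 295, 345 and 242 in Het. KO 3 and KO 4 were the lowest libraries, and the log2 fold change was −0.29 ± 0.48, and −0.53 (adjusted p = 0.144, limma) under the abundant-gene scaling, where its groups did not overlap. Trim46 had 479, 312, 89.3 and 111 in KO, against 131, 168, 177 and 81.02 in Het, which overlapped (0.56 ± 0.45). The muscle ligases Trim63 and Trim55, with a COS box alone, were low, with 11.7, 14.2, 26.5 and 29.2 in KO, against 21.8, 26.3, 20.6 and 21.9 in Het for Trim63. Trim55 had 9.86, 7.77, 16.5 and 20.2 in KO, against 16.7, 11.3, 10.3 and 22.7 in Het. Their log2 fold changes were −0.23 and −0.18. Trim2, an NHL-repeat ligase of axons with the interferon motif in only part of its listed promoters, had 332, 365, 157 and 179.8 in KO, against 181, 210, 246 and 177 in Het. It was not called, at 0.26 ± 0.47. Trim59, a membrane-anchored ligase, had 61.8, 49.2, 25.4 and 23.2 in KO, against 14.1, 25, 24 and 13.8 in Het. Its KO 4 value lay below Het 2 and Het 3 under the deposited scaling (0.95 ± 0.41, adjusted p = 0.551, limma). Of the 3 members in no domain class, the 2 of highest mean overlapped between genotypes as well. Trim45 had 137, 73.8, 57.4 and 55.96 in KO, against 67.9, 53.8, 45.4 and 51.9 in Het (0.47). Trim80 had 7.17, 7.77, 15.4 and 16.7 in KO, against 12.8, 13.8, 9.43 and 32.4 in Het (−0.44).

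The 27 members with a mean under 50 had no call by limma, edgeR or DESeq2. At an unadjusted p under 0.05, 2 were higher and 1 lower by limma, 0 and 0 by edgeR, and 2 and 0 by DESeq2. Trim69, among those higher by limma and by DESeq2, passed the mean of 10 only through the KO libraries. Trim29, the 1 lower by limma, passed it only through the Het libraries. Each was thus kept through the group in which it was high. Of all genes tested, whatever their level, 4.05% were higher and 2.7% lower by limma, and 4.75% and 1.91% by edgeR. Summed, the 27 members had 662, 471, 633 and 630 in the KO libraries, against 615, 584, 510 and 639 in the Het libraries. Olfactory receptor genes, most of which are known from sensory neurons, were set beside such low counts: the 95th percentile of 1042 of them was 4.84 normalized counts per kb, and Trim30b, Trim75, Trim60, Trim71 and Trim29 stood at or below it. Trim29, the member with the lowest log2 fold change, had 0.896, 5.18, 14.3 and 14.3 in KO, against 17.9, 20, 9.43 and 15.4 in Het, or −1.16 ± 0.54 (adjusted p = 0.639, limma). Summed, these 5 members had 62.7 and 50.5 in KO 1 and KO 2, 117 and 111 in KO 3 and KO 4, and 83.1 to 126 in the Het libraries. The olfactory receptors, summed over the same libraries, had 4469 and 3810, 11973 and 10053, and 5941 to 10148. The part of such background counts in the low values was not tested.

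The 5 called genes made up 12.8%, 4.87%, 6.77% and 11.3% of the counts of all 59 members in KO 1 to KO 4, and 2.78%, 2.59%, 2.11% and 3.51% in Het 1 to Het 4. This share does not depend on the scaling between libraries, although the 5 genes were chosen for their difference. In KO 1 to KO 4 their median log2 difference from the Het mean was 3.43, 1.72, 0.63 and 1.99. The 10 genes listed as an interferon signature (Isg15, Ifit1, Ifit2, Ifit3, Mx1, Mx2, Rsad2, Oasl2, Usp18 and Ifi44) had medians of 4.96, 2.97, 1.65 and 2.84 in the same libraries. The 54 other TRIM genes had 0.76, 0.51, −0.24 and 0.03. Of the KO libraries, KO 1 was highest and KO 3 lowest in each of the 3 groups under the deposited scaling. The order changed with the scaling: under the abundant-gene scaling the 5 called genes had medians of 2.44, 0.66, 1.29 and 2.43 in KO 1 to KO 4, and the 54 others −0.23, −0.56, 0.40 and 0.46, with KO 2 lowest in both.

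**Figure D5:**
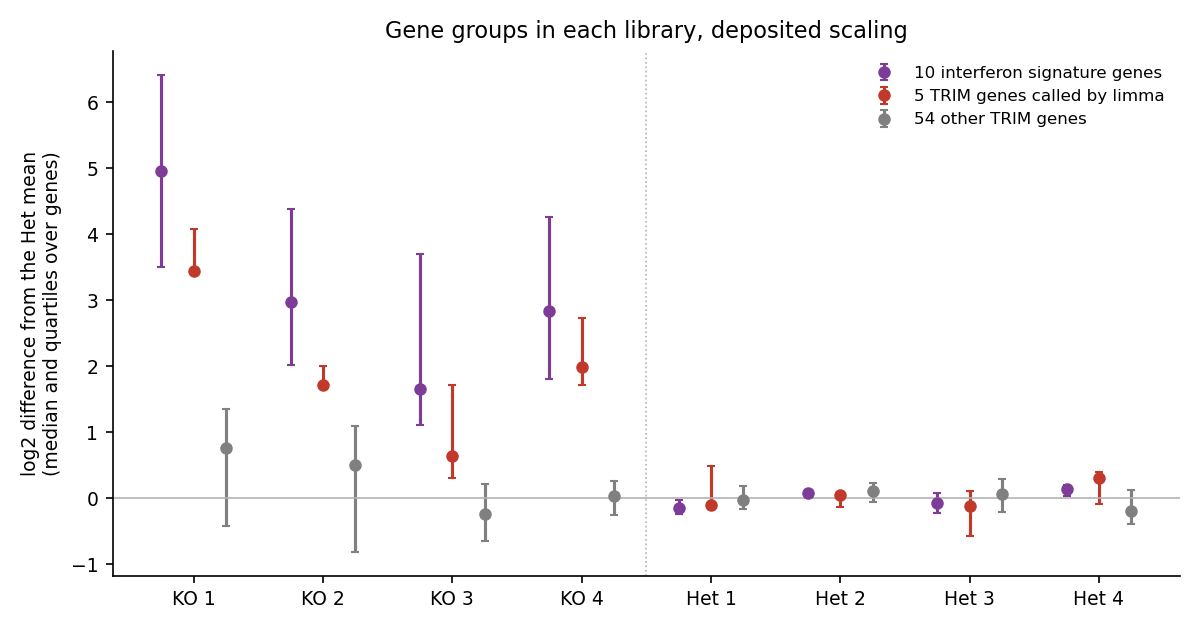
Median (points) and quartiles (bars) over genes of the log2 difference from the Het mean in each library, under the deposited scaling, KO left of Het, for 10 interferon signature genes, the 5 TRIM genes called by limma and the 54 others. The 5 called genes were chosen for being higher in KO. Their medians in the KO libraries run from 0.63 to 3.43, below the interferon genes' 1.65 to 4.96.

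Of these 10 interferon-induced genes, limma called 8 higher, and edgeR and DESeq2 all 10. Of 18 tested genes for signalling proteins that TRIM ligases act on, limma called 2 higher and 0 lower, at unadjusted p under 0.05 4 and 1. The RNA sensor gene Ifih1, which codes for MDA5, had 7496, 1601, 507 and 1530.1 in KO, against 161, 230, 211 and 198 in Het (3.13 ± 0.54, adjusted p = 1.96e-06, limma). The interferon regulatory factor gene Irf7 had 6887, 1896, 1089.7 and 1851 in KO, against 232, 300, 232 and 287 in Het (3.11 ± 0.55, adjusted p = 5.85e-06, limma). DESeq2, and limma under the abundant-gene scaling (adjusted p = 0.0255), also called Ddx58, which codes for the sensor RIG-I, with 7257, 2942, 1015 and 2193 in KO, against 705, 931, 955 and 775 in Het. Tab2 and Tab3, whose proteins Trim30a acts on, were not called, at 0.65 ± 0.57 and 0.84 ± 0.46. Of 16 tested genes for ubiquitin and the enzymes that pass it to TRIM ligases, 0 were called by limma under the deposited scaling, edgeR or DESeq2 (0 in either direction at an unadjusted p under 0.05 by limma, 1 higher by edgeR and by DESeq2). Under the abundant-gene scaling limma called 1, Ube2e1, higher (0.64, adjusted p = 0.0401). Of 5 TRIM-fold genes under other names, Pml, Mid1, Mid2, Mefv and Rnf135, 0 were called (0 at an unadjusted p under 0.05 by limma, 1 higher by edgeR and by DESeq2). Pml, whose protein forms nuclear bodies and is induced by interferon, had 1209, 756, 196 and 473 in KO, against 288, 290, 333 and 248 in Het (0.90 ± 0.51, adjusted p = 0.819, limma).

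Markers of immune cells were summed per library under the deposited scaling. The 5 measured T cell and NK cell markers summed to 22.0 to 52.9 in the KO libraries and 31.7 to 71.7 in the Het libraries, with Trac and Gzma at 0 in some libraries. The 4 B cell markers summed to 38.8 to 99.4 in KO and 66.0 to 90.7 in Het. The 7 macrophage and dendritic cell markers summed to 263 to 870 in KO and 240.0 to 289.5 in Het. Of these 7, limma called Cd74, the invariant chain of MHC class II, higher (3.41 ± 0.40, adjusted p = 9.88e-15), with 718, 91.9, 62.9 and 139.9 in KO, against 14.1, 12.5, 15.4 and 12.96 in Het. The median log2 fold change of the 6 tested markers of this list was −0.42. Itgax was lower at an unadjusted p under 0.05 (−0.98 ± 0.41, adjusted p = 0.517, limma), and Ptprc, Cd68, Adgre1 and Csf1r lay between −0.45 and −0.30. Lyz2 was too low to test. The part of immune cells in the TRIM values was not tested.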

How the data were processed

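RNA was measured by sequencing in 8 libraries of sorted beta cells (4 KO, 4 Het). The deposited signal values are gene counts that the authors divided by 1 size factor per library. Whole counts were recovered, since all values (100%) came out as multiples of the step of 1 count within 0.001. Tools in the submitters' processing notes are STAR 2.7.3a, UMI-tools, HTSeq, FastQC 0.11.8 and DESeq2 1.28.1, with mm10. The counting mode and strand setting are not given in the sources used here, so reads of near-identical or overlapping genes may be split.

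Genotypes were compared with limma 3.58.1 (R 4.3.3; trend and robust settings, two-sided) on log2(value + 1) of the 21498 genes with a mean of at least 10. P-values were Benjamini-Hochberg adjusted over all of them, with a threshold of 0.05. Under the deposited scaling the median total degrees of freedom were 128988. The spread behind a limma p-value was thus almost wholly that of genes of similar level, not the gene's own. Under the abundant-gene scaling the median total was 12.2. Scripts were tested on simulated data. The quasi-likelihood test of edgeR 4.0.16 and DESeq2 1.42.0 ran on the recovered counts. Of the alternatives, 21 were listed first and 1, the abundant-gene scaling, was added after seeing the data. Members and gene lists were chosen with earlier results of these data known. Values in every library are given for members called by any of the 3 tools, the chromosome 7 and interferon lists, and the 2 members of highest mean in each domain class. Shared 50-base stretches were counted in GENCODE M21 transcripts.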

Additional observations from a re-analysis of the deposited data

Results flagged for a closer look

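For each of the 39 named TRIM genes, the highest and the lowest library of each genotype were checked for a gap to the nearest other library that passed Dixon's 95% critical value, 78 groups of 4 libraries in all. Chance alone flags about 1 in 20 such groups, and 2 were found. Trim30a stood at 1309 in KO 1, where the other 3 KO libraries ran from 121 to 313. Trim34a stood at 143 in Het 2, where the other 3 Het libraries ran from 98.8 to 102. Without KO 1 the call of Trim30a held, and without Het 2 that of Trim34a held.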

How the results depend on the processing

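The count of called TRIM genes stayed within 1.5 times of 5 with pseudocounts of 0.5 and 8, with no filter, a mean of at least 50, TMM scaling, a mean of at least 200 with TMM factors (7 of 22 members), edgeR and DESeq2. It was 3 without trend and robust settings, where all genes gave 128, and 3 under the abundant-gene scaling (Trim30a, Trim34a and Trim21), where all genes gave 331. Against all 4 Het libraries, KO 1 and KO 2 alone gave 38 members (33 higher, 5 lower) of 13238 genes, and KO 3 and KO 4 alone 9 members (6 higher, 3 lower) of 1875. The 5 called genes were among those called in both. As they were chosen with all KO libraries together, this is not a separate test of them. Libraries of both sexes alone gave 34 of 10849. A mean of at least 200 with TMM factors gave 688 genes. Leaving out 1 library gave 2 members (without KO 1, Het 1 or Het 4) to 7 (without KO 3), and 111 (without KO 1) to 382 (without KO 3) of all genes, 203 with all libraries; all genes also moved to 311 without KO 4 and to 130.0 without Het 1. Trim35, not called otherwise, was called higher (0.80, adjusted p = 0.0159, limma) with KO 1 and KO 2 alone and lower with KO 3 and KO 4 alone; the cause was not tested. The 5 called genes kept their direction in all 109 values under alternatives, 18 of which missed the threshold. For the 34 uncalled named genes, 56 of 714 values had the other sign. With the replicate number as a block, 5 members and 187 genes were called. Same-numbered libraries did not deviate together (r = −0.28, 0.27, −0.55 and 0.63 for numbers 1 to 4), so the numbers were not taken as pairs.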
